A study of Mus musculus with 45 samples.

Results

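The change of the transcriptome with the dose of R-spondin 3 (Rspo3) was followed in organoids that lack Lgr5. The libraries were chosen by their labels alone: the 2 Lgr5-deficient cultures KO7 and KO2, each grown at 100 and at 5 ng/ml of Rspo3, gave 4 of the 30 organoid libraries and of the 45 libraries of the series. Each culture was derived from the small intestine of 1 E17.5 embryo of the Lgr5-DTReGFP line, and RNA was taken at passage 4. In this line the first exon of Lgr5 carries an inserted cassette for eGFP and a toxin receptor (of diphtheria toxin) that disrupts the gene, and homozygous embryos, called KO here, lack the receptor in every cell. The wild-type (WT) cultures WT10, WT5 and WT30, from embryos of the same line, received the same ligands. All cultures grew in Matrigel with EGF, noggin and 1 CHO-derived mouse Rspondin. The comparison asks how the cultures differ between a higher and a lower dose of this ligand in the absence of Lgr5. In the study, 5 ng/ml of Rspo2 was enough for full survival of organoids, whereas Rspo1 and Rspo3 needed 100 ng/ml among the doses tested. The part of survival in the differences between doses and between ligands was not tested. Values are CPM, the reads counted on a gene scaled to a common library total. Differences are log2 fold changes of CPM + 1 between 100 and 5 ng/ml within a culture, given with their standard error (SE). A gene was called higher or lower at a Benjamini-Hochberg adjusted p below 0.05 in limma, a linear model with a shared estimate of the spread, with the culture as a block. Since 2 cultures represent the KO genotype, each value rests on 2 pairs.

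Rspondins are secreted proteins that bind the receptors Lgr4, Lgr5 and Lgr6 and the membrane E3 ubiquitin ligases Rnf43 and Znrf3. The ligases remove Frizzled receptors from the cell surface, and Rspondins clear the ligases, so that a given amount of Wnt gives more β-catenin signaling. In the intestine this signal maintains dividing stem cells at the crypt base and Paneth cells beside them, while cells that leave the crypt become absorptive enterocytes or secretory goblet, enteroendocrine and tuft cells.

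Reads on the Lgr5 gene (GRCm38, chromosome 10, 115450311 to 115587780, minus strand) were nearly absent at 5 ng/ml, with 0.2 CPM in KO7 and 0.25 CPM in KO2, and present at 100 ng/ml, with 35.1 and 41.2 CPM. WT libraries held 0.35 to 0.6 CPM at 5 ng/ml and 39.4 to 50.6 CPM at 100 ng/ml of Rspo3. Because the cassette lies in the first exon, reads on later exons persist, and this count does not check the genotype. Depth, recovered from the spacing of the lowest CPM values, was 24.0 to 33.1 M reads in the 4 libraries. General epithelial genes summed to 5304 to 6305 CPM in each library. Markers of other tissues were low in all 4: mesenchymal markers summed to 9.55 to 15.8 CPM with Dcn and Lum at 0, immune markers to 36.6 to 71.2 CPM, and endothelial, neural and erythroid markers to 15.4 to 33.6 CPM with Cdh5, Kdr and 3 globin genes at 0. Of the immune markers, Cd14 and Csf1r made up most of the sum while the pan-leukocyte gene Ptprc was at 0 to 0.05 CPM. Gastric epithelium genes summed to 89.9 CPM in KO7 and 44.8 CPM in KO2 at 5 ng/ml and to 21.1 and 21.4 CPM at 100 ng/ml, and their part in the results below was not tested. Both KO cultures expressed Y-linked genes (Ddx3y 55.5 to 69.2 CPM) and the WT cultures Xist (1030 to 3926 CPM), so genotype and sex cannot be told apart. The library of KO7 at 100 ng/ml also held Xist at 39.0 CPM, which was 1.80% of the mean of the WT libraries at that dose, against 0.45 to 2.45 CPM in the other 3. Among the other KO libraries, that of KO2 at 100 ng/ml of Rspo1 stood apart with 213 CPM of Xist, and the called differences from Rspo1 are given with and without it. Library numbers in the titles rise by 2 within a culture, except from 84 to 88 for KO2 at 5 ng/ml of Rspo3. The title was used as given, and without this library 6268 genes were called higher and 2387 lower, against 7605 and 2929 with it.

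Of 19130 genes tested, 10534 (55.1%) were called, 7605 higher (39.8%) and 2929 lower (15.3%) at 100 ng/ml. The median change of all genes was 0.24 on the log2 scale, equal in both cultures, and it fell to 0.02 when CPM were divided by median-of-ratios size factors and to -0.03 after quantile normalisation. The higher share of the calls fell with it, from 72.2% to 50.9% and 48.8%. Under median-of-ratios scaling 5175 genes were higher (27.1%) and 4996 lower (26.1%), and all 2929 genes called lower in CPM were among the latter. List members are therefore described against the median of all genes, and changes that depended on the scaling are named. A stricter call, added after the data were seen, asked for a log2 change above 1 under median-of-ratios scaling and left 1900 genes higher (9.93%) and 1399 lower (7.31%).

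Both cultures moved the same way for 84.4% of the genes tested, and Pearson's r between the 2 sets of differences was 0.889 across 19130 genes, which are not independent replicates. Of the called genes, 14 moved in opposite directions, but the call rests on these same differences and favours genes in which the 2 cultures agree. A change above 4-fold was found for 551 genes called higher and 125 called lower. In 51.5% of all tested genes both libraries at 100 ng/ml lay above both at 5 ng/ml, and in 21.7% below.

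**Figure D1:**
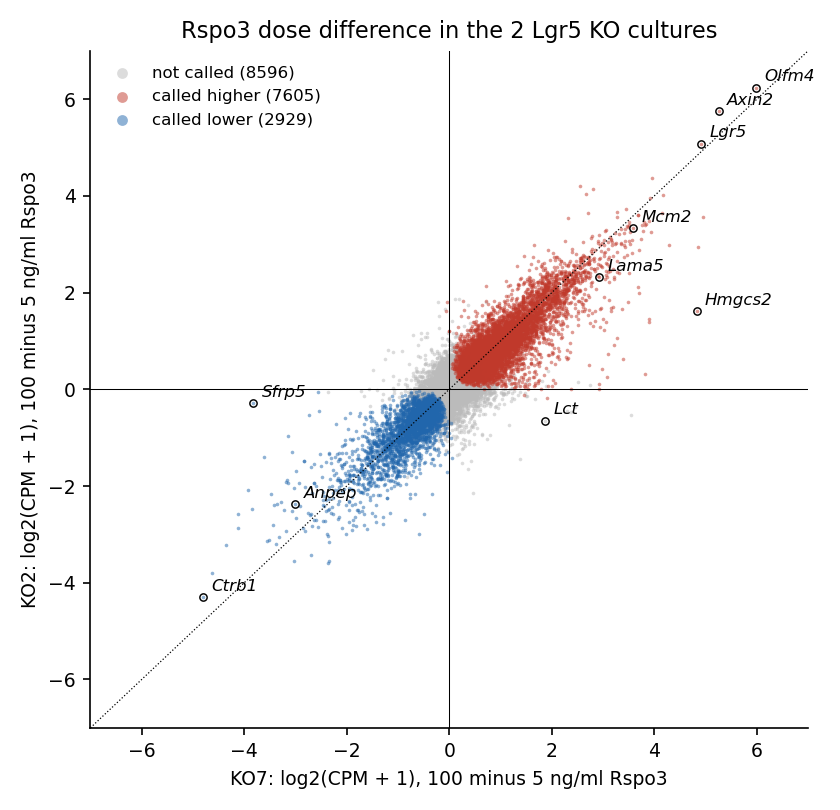
Difference of log2(CPM + 1) between 100 and 5 ng/ml of Rspo3 in KO7 (x axis) and KO2 (y axis), 1 point per tested gene, coloured by the call in CPM. The points lie along the dotted line of equal change, with Olfm4 and Axin2 at the upper end and Ctrb1 at the lower end, while Sfrp5 and Lct lie away from it.

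The receptors and ligases through which Rspondins act responded unequally. Lgr4, a paralogue of Lgr5 that also binds Rspondins, stood at 242 and 268 CPM in KO7 and KO2 at 5 ng/ml and at 264 and 310 CPM at 100 ng/ml. Its difference of 0.17 ± 0.11 was not called (limma, adjusted p = 0.21), was -0.14 under median-of-ratios scaling and 0.29, then called, after quantile normalisation. Lgr6 had at most 0.05 CPM in any of the 4 libraries, and of the ligands themselves only Rspo4 passed the filter, at 0.05 to 0.7 CPM. The ligases rose: Rnf43 went from 27.0 and 23.9 CPM to 187 and 129.9 CPM (2.57 ± 0.27, limma, adjusted p = 1.05e-07), and Znrf3 from 9.7 and 15.7 CPM to 44.2 and 60.5 CPM (1.98 ± 0.19, limma, adjusted p = 3.02e-08). For both ligases the lowest library at 100 ng/ml lay above the highest at 5 ng/ml, as in 51.5% of all genes. The heparan sulfate proteoglycans of the cell surface, which can bind Rspondins and Wnts, were divided. Gpc3 fell from 62.1 and 53.2 CPM to 21.1 and 34.8 CPM (-1.06 ± 0.24), but the call was lost without the culture block (limma, adjusted p = 0.17) and, at -0.60, without the KO7 pair. Sdc4 rose from 145 and 136 CPM to 233 and 201 CPM (0.62 ± 0.11). Gpc4 (-0.31 ± 0.15) was called lower under the other scalings only. Sdc1 (0.28 ± 0.09) was called in CPM, but not without the culture block (limma, adjusted p = 0.17) nor without KO7 at 100 ng/ml (0.27), and turned to -0.026 under median-of-ratios scaling.

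Among 29 tested Wnt ligands, Frizzled and Lrp receptors and core pathway proteins, 13 were called higher and 4 lower. These shares were 44.8% and 13.8%, against 39.8% and 15.3% of all genes. Under median-of-ratios scaling the counts were 10 and 9, against 27.1% and 26.1% of all genes. With a median of 0.14 (-0.09 under median-of-ratios scaling), against 0.24 for all genes, the list as a whole stayed near the background. Single Frizzled receptors moved in opposite directions. Fzd7 rose from 29.6 and 28.4 CPM to 83.2 and 94.95 CPM (1.58 ± 0.17, limma, adjusted p = 1.24e-07) and Fzd2 from 0.75 and 2.3 CPM to 8.1 and 13.8 CPM (2.27 ± 0.24), while Fzd5, with 614 and 690.1 CPM at 5 ng/ml and 273 and 483 CPM at 100 ng/ml, and Fzd4 fell by 0.84 and 1.22. Without KO7 at 100 ng/ml Fzd5 was at -0.58 and not called. Of the ligands, Wnt7b rose from 1.05 and 0.2 CPM to 12.4 and 2.5 CPM (2.13 ± 0.26), Wnt3, a Paneth cell product, rose by 1.48 to 5.35 and 5.75 CPM, and Wnt4 fell by 1.22. The carrier that brings Wnts to the cell surface, Wls, rose from 18.7 and 13.9 CPM to 58.9 and 49.7 CPM (1.68 ± 0.15). β-catenin itself (Ctnnb1) stood at 983 and 915 CPM and at 1022 and 828 CPM, a difference of -0.04 that was called lower under median-of-ratios scaling and higher after quantile normalisation.

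Wnt/β-catenin target and feedback genes rose with the dose. Of 25 tested, 19 were called higher (76.0% against 39.8% of all genes) and 1 lower, with a median of 1.99, which was 1.69 under median-of-ratios scaling. Axin2 (chromosome 11, 108920349 to 108950783, plus strand), a scaffold of the β-catenin destruction complex and the most used readout of the pathway, had 3.25 and 3.5 CPM at 5 ng/ml and 162 and 240.4 CPM at 100 ng/ml. The rise was 5.50 ± 0.49 (limma, adjusted p = 1.85e-08), and both libraries at the higher dose lay far above both at the lower. Ascl2, a transcription factor of stem cells, went from 0.15 and 0.2 CPM to 19.4 and 14.1 CPM (3.90 ± 0.41, limma, adjusted p = 1.21e-07). Tnfrsf19, a receptor also known as Troy, went from 0.1 and 0 CPM to 20.4 and 6.9 CPM (3.63 ± 0.36). For these low genes the added 1 makes the fold change smaller than the ratio of CPM. The cell cycle regulators Ccnd1 (3.12) and Myc (2.46) and the transcription factor Sox9 (2.69) rose as well. Another 5 members were not called: the feedback inhibitors Nkd1, Nkd2, Notum and Apcdd1, which had at most 1.65 CPM in any of the 4 libraries, and Prox1 (12.4 to 13.2 CPM). Nkd1 was called, at 1.09, without KO2 at 100 ng/ml. The Wnt antagonist Sfrp5 was called lower at -2.06 but differed between the cultures, with 33.0 CPM at 5 ng/ml and 1.4 CPM at 100 ng/ml in KO7 against 6.35 and 5 CPM in KO2. Without KO7 at 5 ng/ml Sfrp5 was at -0.43 and not called, and without KO2 at 5 ng/ml it was at -3.69.

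The promoters of the genes that rose were compared for a short match to the site of the TCF/LEF factors that partner β-catenin, CTTTGAA or CTTTGAT on either strand. The window held 250 bases before and 50 after the RefSeq start (GRCm38.p6). Of the 32 members of the Wnt target and stem cell lists called higher, 22 had a RefSeq promoter, and 3 of these (13.6%) held a match, against 7.54% of 11335 tested genes and 9.88% of all 27025 genes with a promoter. The promoters of the 2 genes with the largest rises, Axin2 (chr11:108920099-108920398, plus strand) and Olfm4 (chr14:80000052-80000351, plus strand), are shown with those of Sp5 (chr2:70474673-70474972, plus strand), Tnfrsf19 (chr14:61037938-61038237, minus strand) and Mmp7 (chr9:7691840-7692139, plus strand), the 3 genes with a match. Each is written 5′ to 3′ along its gene, and capitals mark the match.
Axin2: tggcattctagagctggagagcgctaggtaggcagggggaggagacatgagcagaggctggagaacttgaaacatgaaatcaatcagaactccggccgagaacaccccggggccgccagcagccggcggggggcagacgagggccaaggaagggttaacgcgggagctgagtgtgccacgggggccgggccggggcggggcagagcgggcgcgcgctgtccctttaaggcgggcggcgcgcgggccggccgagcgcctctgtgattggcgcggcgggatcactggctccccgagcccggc
Olfm4: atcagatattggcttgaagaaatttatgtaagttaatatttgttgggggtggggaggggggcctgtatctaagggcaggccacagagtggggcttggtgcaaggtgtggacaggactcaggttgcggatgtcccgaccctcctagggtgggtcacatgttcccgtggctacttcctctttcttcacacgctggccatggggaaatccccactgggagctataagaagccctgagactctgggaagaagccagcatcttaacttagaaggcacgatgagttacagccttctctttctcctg
Sp5: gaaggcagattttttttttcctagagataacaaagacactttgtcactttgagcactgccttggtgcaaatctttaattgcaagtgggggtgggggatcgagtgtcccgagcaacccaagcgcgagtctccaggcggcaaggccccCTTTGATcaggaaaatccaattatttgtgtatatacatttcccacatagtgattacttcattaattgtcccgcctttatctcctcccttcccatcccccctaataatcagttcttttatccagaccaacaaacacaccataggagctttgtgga
Tnfrsf19: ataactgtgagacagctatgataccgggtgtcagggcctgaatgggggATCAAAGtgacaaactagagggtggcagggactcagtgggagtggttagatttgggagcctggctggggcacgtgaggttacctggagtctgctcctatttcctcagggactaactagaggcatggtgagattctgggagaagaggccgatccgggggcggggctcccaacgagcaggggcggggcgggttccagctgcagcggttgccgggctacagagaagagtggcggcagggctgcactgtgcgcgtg
Mmp7: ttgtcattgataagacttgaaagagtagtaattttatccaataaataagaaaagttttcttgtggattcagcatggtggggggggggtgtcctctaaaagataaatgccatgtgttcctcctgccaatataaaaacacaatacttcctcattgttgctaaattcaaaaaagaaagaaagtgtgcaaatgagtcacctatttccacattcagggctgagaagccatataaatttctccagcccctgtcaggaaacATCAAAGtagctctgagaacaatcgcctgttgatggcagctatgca
The Axin2 and Olfm4 windows, of the genes that changed most, held no match to these letters. Tnfrsf19 has a further start without a match, and the window of a further Mmp7 start overlaps the one shown and holds the same match. The target gene Sp5, at 4.4 and 3.65 CPM at 5 ng/ml and 13.1 and 7.85 CPM at 100 ng/ml, was called in CPM (1.16) but not under either other scaling, without the culture block (limma, adjusted p = 0.074) or, at 0.66, without KO7 at 100 ng/ml.

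Markers of intestinal stem cells rose most of all lists. All 20 were tested, and 18 were called higher under each of the 3 scalings and none lower. Of all genes, 39.8% were called higher in CPM, 27.1% under median-of-ratios scaling and 25.6% after quantile normalisation. The stricter call held for 15 of the 18, against 9.93% of all genes. The median of the list was 3.18 (2.92 under median-of-ratios scaling). Some members (Lgr5, Ascl2, Tnfrsf19, Sox9 and Cd44) belong to the Wnt target list too. That list also holds Rnf43, Fzd7, Ephb2, Ephb3 and Mmp7, which are described with other lists. Neurog3 is in both the enteroendocrine and the Notch list, so the counts of different lists are not independent. Olfm4 (chromosome 14, 79984081 to 80023139, plus strand), a secreted glycoprotein of crypt base columnar cells, showed the largest rise of the list: it had 7.2 and 7.85 CPM at 5 ng/ml and 517 and 667 CPM at 100 ng/ml (6.11 ± 0.51, limma, adjusted p = 8.43e-09). Msi1, an RNA-binding protein of progenitors, rose from 1.35 and 1.85 CPM to 34.2 and 43.3 CPM (3.93 ± 0.33). The sodium-potassium-chloride cotransporter Slc12a2 rose from 89.7 and 106 CPM to 1028 and 1120.5 CPM, a difference of 3.45. Smoc2 (1.89), Lrig1 (1.14) and Bmi1 (0.94), markers that were described for stem or reserve cells, rose less. The 2 members that were not called were Tert, with 51.8 and 42.0 CPM against 49.6 and 42.2 CPM, and Gkn3, with 0.05 to 2.85 CPM, which was called, at 1.74, without KO7 at 5 ng/ml.

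**Figure D2:**
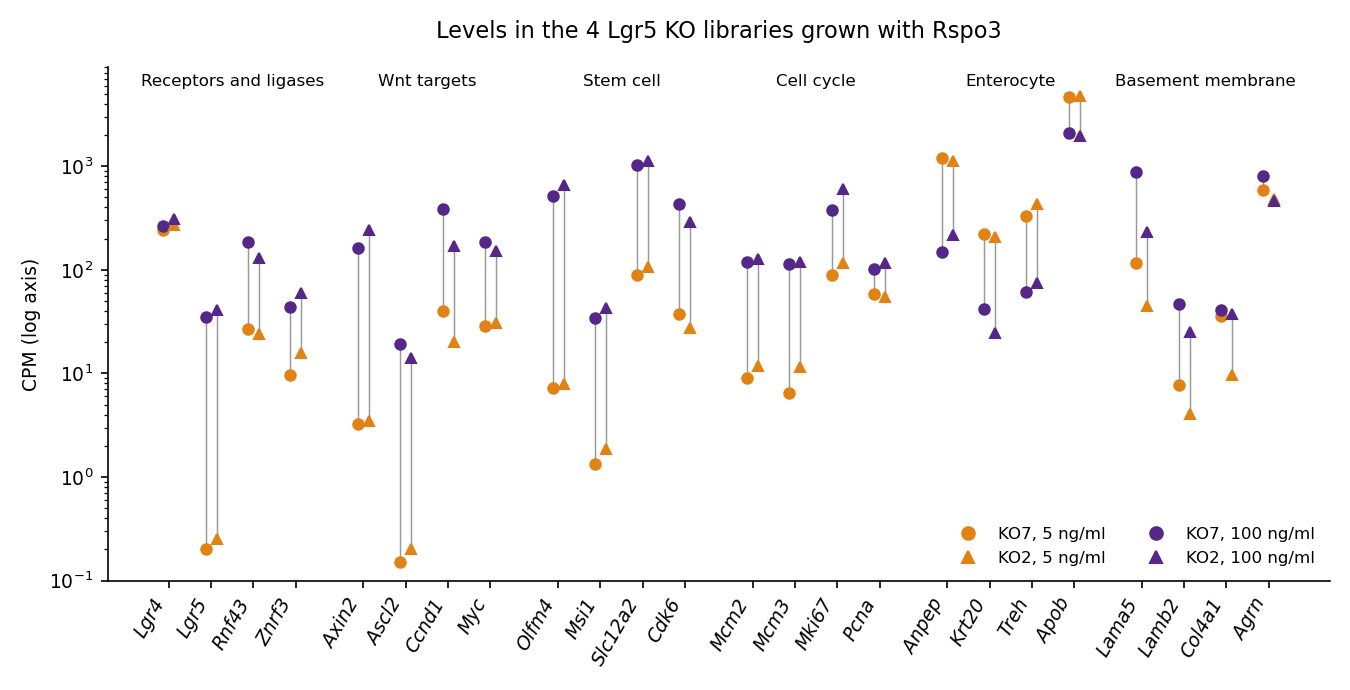
CPM on a log axis of 24 genes in the 4 KO libraries grown with Rspo3, circles for KO7 and triangles for KO2, orange at 5 ng/ml and purple at 100 ng/ml, with a line joining the doses of 1 culture. Stem cell, Wnt target and cell cycle genes stand higher and enterocyte genes lower at 100 ng/ml in both cultures, whereas the Lgr4 points lie close together (its difference changed sign with the scaling) and the Lama5 points of KO7 lie above those of KO2 at each dose.

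Every one of the 34 cell cycle genes tested was called higher under all 3 scalings, and 33 passed the stricter call. Of all genes, 39.8% were called higher in CPM, 27.1% under median-of-ratios scaling, 25.6% after quantile normalisation and 9.93% by the stricter call. The median of the list was 2.34 (2.06 under median-of-ratios scaling). The subunits of the replicative helicase rose most. Mcm3 had 6.5 and 11.6 CPM at 5 ng/ml and 114 and 118 CPM at 100 ng/ml (3.59 ± 0.29, limma, adjusted p = 6.28e-09), and Mcm2 had 9.1 and 11.8 CPM against 120.2 and 128 CPM (3.46 ± 0.27, limma, adjusted p = 6.28e-09). Mcm5 (3.24) and Mcm4 (3.12) followed. The proliferation antigen Mki67 rose by 2.22, from 89.6 and 117 CPM to 381 and 604 CPM. Among mitotic genes, Top2a rose by 2.76 and Cdk1 by 2.31. The smallest rise of the list was that of the replication clamp Pcna (0.92), from 58.6 and 55.0 CPM to 101.35 and 117 CPM. In KO2 the levels of Mki67, Top2a and Cdk1 were higher than in KO7 at each dose.

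Genes of absorptive enterocytes fell. None of the 35 tested was called higher and 26 were called lower (74.3% against 15.3% of all genes). Under median-of-ratios scaling 27 were lower, against 26.1% of all genes. The median was -1.22 (-1.52 under median-of-ratios scaling). Leaving out 1 library or 1 pair left 20 to 25 called lower. The sum of the list fell from 30832 and 28382 CPM to 19152 and 12838 CPM. In bulk RNA, fewer cells of a type and less of its RNA per cell cannot be told apart. The brush border aminopeptidase Anpep (chromosome 7, 79821803 to 79861059, minus strand) went from 1208 and 1128 CPM to 149.8 and 217 CPM (-2.69 ± 0.33, limma, adjusted p = 9.94e-07). The peptide transporter Slc15a1 went from 218 and 211 CPM to 42.1 and 22.9 CPM (-2.75 ± 0.39), Krt20, a keratin of mature villus cells, from 221 and 209 CPM to 41.9 and 24.6 CPM (-2.70 ± 0.38), and the trehalase Treh from 329 and 429 CPM to 61.5 and 74.4 CPM (-2.45 ± 0.29). For these 4 genes, chosen as the largest called falls of the list, both libraries at 100 ng/ml lay below both at 5 ng/ml. The same held for 27 of the 35 list members and for 21.7% of all genes. Lipid transport genes were among those that fell, with Apoa1 at -1.86, Fabp2 at -1.76 and Apob at -1.23. Several genes of sugar digestion and uptake were not called. The disaccharidase Sis stood at 2706 and 2192 CPM and at 3014 and 1103 CPM (-0.42), its relative Mgam at 1677 and 1302 CPM and at 2107 and 984 CPM (-0.04), and the glucose transporter Slc5a1 at 1223 and 874 CPM and at 1474 and 609 CPM (-0.13). Each of the 3 was higher at 100 ng/ml in KO7 and lower in KO2. The lactase Lct followed the same pattern, with 20.6 and 78.0 CPM in KO7 and 15.6 and 9.6 CPM in KO2.

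Paneth cell genes rose. Of 20 tested, 16 (80.0%) were called higher under CPM and under median-of-ratios scaling, against 39.8% and 27.1% of all genes, and 1 lower, with a median of 1.48 (1.19 under median-of-ratios scaling). The antimicrobial enzyme lysozyme (Lyz1) had 62.3 and 113 CPM at 5 ng/ml and 247 and 287 CPM at 100 ng/ml, a rise of 1.65. Habp2, a serine protease, rose from 1.65 and 2 CPM to 34.6 and 24.8 CPM (3.43 ± 0.27, limma, adjusted p = 5.90e-09), and the lectin Itln1 from 18.6 and 59.7 CPM to 249.3 and 261 CPM (2.89 ± 0.39, limma, adjusted p = 3.20e-06). The protease Mmp7, which activates defensins, rose from 0 and 0.1 CPM to 9.4 and 2.5 CPM (2.52 ± 0.39), and the ribonuclease Ang4 from 4.3 and 3.55 CPM to 41.5 and 11.4 CPM (2.22 ± 0.38, and 1.45, still called, without the KO7 pair). The α-defensin genes that passed the filter were all called higher, by 0.74 to 2.17, but these near-identical copies can share reads and their single values are uncertain. The lipase gene Pnliprp2 was the member called lower, at 202 and 55.6 CPM against 189.9 and 21.4 CPM (-0.72), a call that was lost without the culture block (limma, adjusted p = 0.53) and, at -0.09, without KO2 at 100 ng/ml. The mucosal pentraxins Mptx1 and Mptx2 were not called (-0.36 and -0.25), and Mptx1 was called, at -0.94, without KO7 at 5 ng/ml.

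Goblet cell genes moved in both directions. Of 17 tested, 5 were called higher (29.4%, below the 39.8% of all genes) and 6 lower (35.3% against 15.3%). Under median-of-ratios scaling 2 were higher and 8 lower, against 27.1% and 26.1% of all genes, and without the culture block 1 and 3. Zg16, a lectin of the mucus, went from 472 and 399 CPM to 144 and 68.8 CPM (-2.11 ± 0.46), and the mucus gel protein Muc2 from 1179 and 1223 CPM to 737 and 434 CPM (-1.08 ± 0.28, limma, adjusted p = 0.00288). The protease Clca1 had 362 and 224 CPM against 155 and 46.1 CPM (-1.74 ± 0.44). Both Muc2 and Clca1 rested on KO2: without its 5 ng/ml library Muc2 was at -0.75 (limma, adjusted p = 0.087), and without its 100 ng/ml library Clca1 was at -1.37 (limma, adjusted p = 0.053), neither called, and Muc2 was not called without the culture block (limma, adjusted p = 0.053). Creb3l1, a transcription factor, rose from 9 and 10.8 CPM to 20.7 and 26.6 CPM (1.18 ± 0.21, limma, adjusted p = 9.86e-05, and 0.073 without the culture block), and the fate regulator Spdef from 18.1 and 20.9 CPM to 33.7 and 26 CPM (0.58), a call that was lost under both other scalings and, at 0.43, without KO7 at 100 ng/ml.

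Of 22 enteroendocrine genes, 3 were called higher (13.6% against 39.8% of all genes) and 5 lower (22.7% against 15.3%). The counts were 2 and 10 under median-of-ratios scaling, against 27.1% and 26.1% of all genes, and 1 and 3 without the culture block. Neurog3, the factor that starts this lineage, rose from 1.7 and 3.7 CPM to 8.25 and 12.1 CPM (1.62 ± 0.27, limma, adjusted p = 3.26e-05). The incretin hormone Gip fell from 48.0 and 50.7 CPM to 12.4 and 6.95 CPM (-2.29 ± 0.33). Ddc, an enzyme of amine synthesis also made by enterocytes, fell from 248 and 302 CPM to 49.4 and 113 CPM (-1.86 ± 0.20). The granule protein Chga had 38.8 and 63.0 CPM against 34.8 and 29.9 CPM and was called lower only under the other scalings and, at -0.94, without KO7 at 5 ng/ml. Tuft cell genes were few and low. Of 11 tested, 5 were called higher (45.5%, near the 39.8% of all genes) and 1 lower (9.09% against 15.3%). Without the culture block 2 were called higher. The tuft cell master regulator Pou2f3 rose from 0.15 and 0.4 CPM to 1.75 and 2.05 CPM (1.19 ± 0.29) and Ptgs1 from 1.5 and 1 CPM to 5.1 and 4.45 CPM (1.37 ± 0.20), while the marker Dclk1 stood at 0.6 and 1.2 CPM against 0.65 and 1.2 CPM.

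Notch pathway and secretory fate regulators were called higher in 11 of 16 (68.8% against 39.8% of all genes) and lower in none (8 and 1 under median-of-ratios scaling, where 27.1% of all genes were higher) and a median of 0.76. The ligand Jag2 rose from 11.7 and 11 CPM to 104 and 60.5 CPM (2.71 ± 0.26, limma, adjusted p = 3.82e-08), the receptor Notch2 from 23.1 and 25.8 CPM to 118 and 98.5 CPM (2.10 ± 0.20) and Lfng, a glycosyltransferase that modifies Notch, from 1.45 and 1.95 CPM to 8.2 and 13.2 CPM (2.09 ± 0.28). The Notch target Hes1 was not called, at 72.4 and 79.4 CPM against 67.8 and 90.7 CPM. Its counterpart Atoh1, which directs cells to the secretory lineages, had 12.6 and 14.8 CPM against 20.7 and 16.2 CPM and was not called, but was called, at 0.68, without KO2 at 5 ng/ml.

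**Figure D3:**
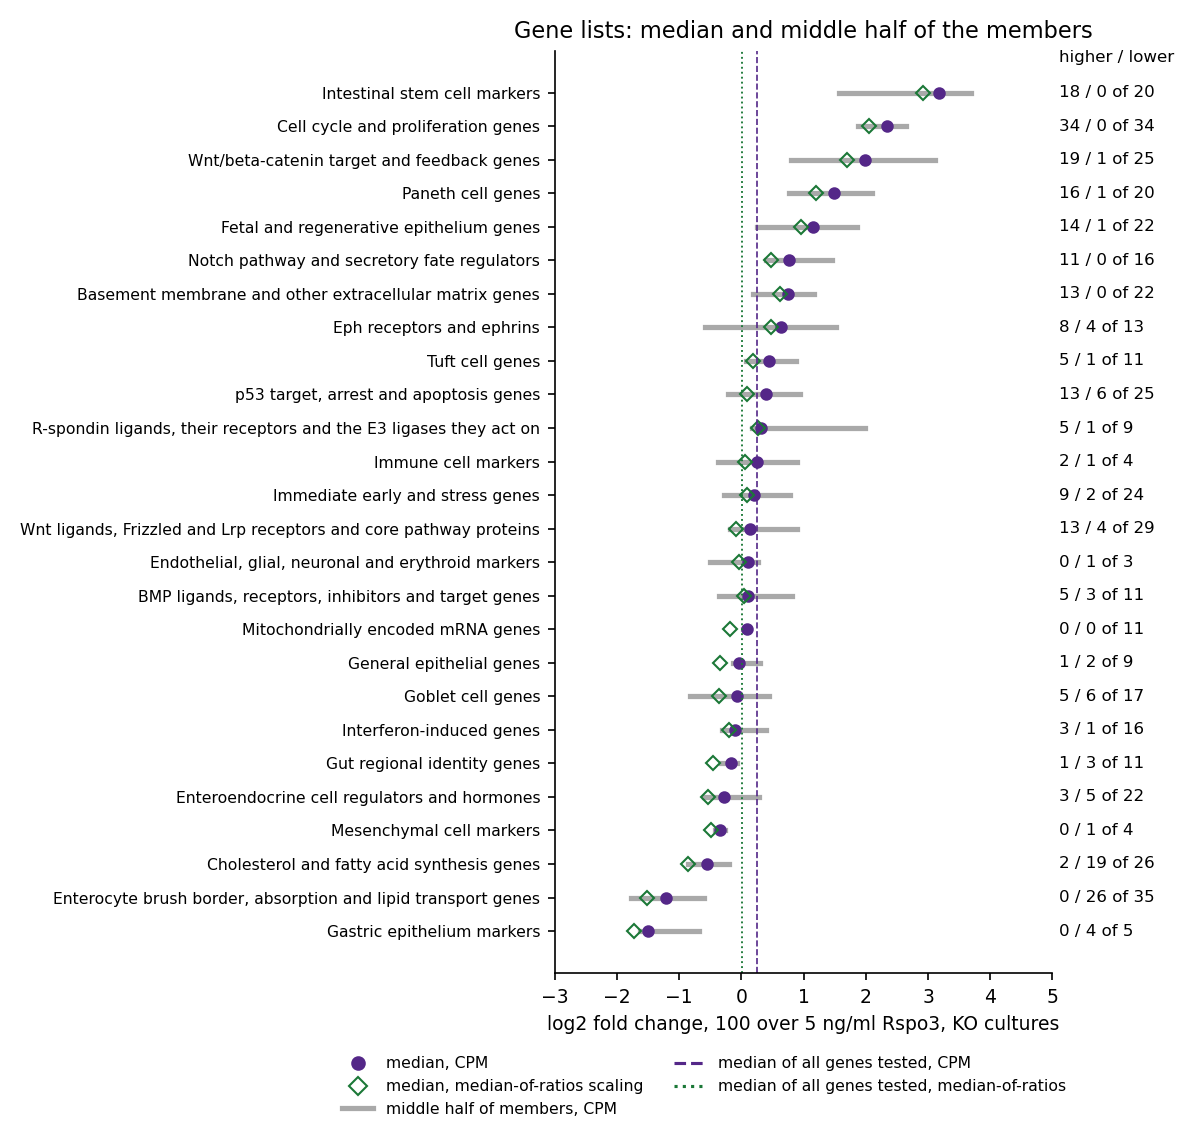
Median log2 fold change of 26 gene lists between 100 and 5 ng/ml of Rspo3 in the KO cultures, filled circles in CPM and open diamonds under median-of-ratios scaling, with a bar from the lower to the upper quartile of the members in CPM and, at the right, the members called higher and lower of those tested. Stem cell, cell cycle, Wnt target and Paneth lists lie above the medians of all genes (0.24 and 0.02) and enterocyte and gastric lists below, and 3 medians near 0 (Wnt ligands and core proteins, mitochondrial genes, endothelial to erythroid markers) change sign between the scalings.

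Basement membrane and other matrix genes were called higher in 13 of 22 tested (59.1% against 39.8% of all genes), 10 under median-of-ratios scaling (27.1% of all genes), where 3 others were called lower, and 8 without the culture block, and the median was 0.75. In 12 of the 22 both libraries at 100 ng/ml lay above both at 5 ng/ml, a share near the 51.5% of all genes. The largest rises were those of the laminin chains Lama5 and Lamb2. Lama5 (chromosome 2, 180176373 to 180225859, minus strand), the α chain of the mature epithelial basement membrane, had 116 and 45.1 CPM in KO7 and KO2 at 5 ng/ml and 883 and 229.7 CPM at 100 ng/ml (2.62 ± 0.36, limma, adjusted p = 3.30e-06). Lamb2 rose from 7.7 and 4.05 CPM to 47.0 and 25.1 CPM (2.41 ± 0.25, limma, adjusted p = 8.47e-08), and the γ chain Lamc1 from 76.3 and 81.0 CPM to 125 and 131 CPM (0.69). Lama5 of KO2 at 100 ng/ml exceeded that of KO7 at 5 ng/ml, so the doses did not overlap although the cultures differed. The collagen IV chains depended on single libraries. Col4a2 went from 33.1 and 7.2 CPM to 55.1 and 35.1 CPM (1.43 ± 0.44, limma, adjusted p = 0.00951, and 0.094 without the culture block). It was at 0.58 and not called without KO2 at 5 ng/ml and at 2.28 without KO7 at 5 ng/ml. Col4a1 had 36.1 and 9.6 CPM against 41.1 and 37.6 CPM (1.02 ± 0.46, limma, adjusted p = 0.0664), was not called, and was at 1.86 and called without KO7 at 5 ng/ml. The lysyl oxidase homologue Loxl4 had 13.8 and 2.7 CPM against 51.0 and 6.7 CPM (1.44 ± 0.46). Its call was lost without the culture block (limma, adjusted p = 0.11), at 0.67 without KO7 at 100 ng/ml and at 1.13 without KO2 at 5 ng/ml, and the value was 2.20 without KO2 at 100 ng/ml. The linker nidogen (Nid1) had 43.5 and 35.4 CPM against 25.5 and 25.6 CPM and was called lower only under the other scalings. Mesenchymal matrix genes such as Col6a1, Lox and Fn1 had at most 0.5 CPM.

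Fetal and regenerative epithelium genes were called higher in 14 of 22 (63.6% against 39.8% of all genes) and lower in 1, with a median of 1.15. Under median-of-ratios scaling 12 were higher and 3 lower, against 27.1% and 26.1% of all genes. Leaving out 1 library or 1 pair left 9 to 14 called higher, and the fit without the culture block 8. Ly6a, which codes for Sca-1, rose from 1.05 and 0.55 CPM to 22.4 and 7.2 CPM (2.96 ± 0.28, limma, adjusted p = 4.10e-08), the annexin Anxa3 from 24.9 and 6.85 CPM to 156 and 41.4 CPM (2.51 ± 0.32) and the secreted phosphoprotein Spp1 from 1.15 and 0.25 CPM to 26.7 and 14.3 CPM (3.65 ± 0.46). At each dose KO7 had more of these 3 transcripts than KO2. In 11 of the 22 genes both libraries at 100 ng/ml lay above both at 5 ng/ml, a share near the 51.5% of all genes. Reg3b, an antimicrobial lectin, was the member called lower, from 117 and 362 CPM to 28.4 and 44.8 CPM (-2.50 ± 0.57), and was at -2.01 and not called without the KO2 pair.

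In the Eph family, which sorts crypt from villus cells, 8 of 13 genes were called higher (61.5% against 39.8% of all genes) and 4 lower (30.8% against 15.3%). The receptors Ephb3, from 11.8 and 7.45 CPM to 81.7 and 104 CPM (3.17 ± 0.34, limma, adjusted p = 1.70e-07), and Ephb2, from 53.5 and 51.9 CPM to 199 and 195 CPM (1.88 ± 0.20, limma, adjusted p = 1.26e-07), rose. Their ligands Efnb1 and Efnb2 fell by 0.58 and 1.14, the latter from 428 and 475 CPM to 214 and 194 CPM. Among the A class, Epha4 (2.25) and Epha2 (1.52) rose and Epha1 fell by 0.82. Genes of the BMP pathway were split too, with 5 of 11 called higher (45.5%, near the 39.8% of all genes) and 3 lower (27.3% against 15.3%). Under median-of-ratios scaling 3 were higher and 4 lower, against 27.1% and 26.1% of all genes. The ligand Bmp7 rose from 3.25 and 3.65 CPM to 22.5 and 22.6 CPM (2.41 ± 0.23), whereas Bmp3 fell from 162 and 220.3 CPM to 25.2 and 56.5 CPM (-2.29 ± 0.27) and Bmp2 from 33.5 and 28.6 CPM to 13 and 12.4 CPM (-1.22 ± 0.28). The BMP target Id3 rose from 5.2 and 4.9 CPM to 9.5 and 16.4 CPM (1.16 ± 0.25), and was at 0.76 and not called without the KO2 pair.

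Cholesterol and fatty acid synthesis genes fell: 19 of 26 were called lower (73.1% against 15.3% of all genes) and 2 higher, 21 and none under median-of-ratios scaling, 13 and 3 after quantile normalisation. All genes were called lower in 26.1% and 26.9% under these scalings. Between 5 and 19 were called lower when 1 library or 1 pair was left out and 11 without the culture block, and the median was -0.82 in KO7 and -0.34 in KO2. The sterol sensor partner Insig1 went from 715 and 740 CPM to 225 and 380.3 CPM (-1.31 ± 0.19, limma, adjusted p = 8.93e-06), and the last enzyme of cholesterol synthesis, Dhcr7, from 201 and 258 CPM to 75.05 and 154 CPM (-1.07 ± 0.17). The fatty acid synthase Fasn had 735 and 916 CPM against 627 and 1210.3 CPM and was not called.

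Of 25 p53 target, arrest and apoptosis genes, 13 were called higher (52.0% against 39.8% of all genes) and 6 lower (24.0% against 15.3%). Under median-of-ratios scaling 11 were higher and 10 lower, against 27.1% and 26.1% of all genes. The median in CPM was 0.39 against 0.24 for all genes. The stress cytokine Gdf15 rose from 3.9 and 3.3 CPM to 46.5 and 29.6 CPM (3.05 ± 0.29, limma, adjusted p = 4.25e-08). The cell cycle inhibitors Cdkn1c and Cdkn2b fell by 1.21 and 1.48, and p21 (Cdkn1a) had 146 and 119 CPM against 154 and 94.8 CPM. Of 24 immediate early and stress genes, 9 were called higher (37.5%, close to the 39.8% of all genes) and 2 lower (8.33% against 15.3%). The asparagine synthetase Asns rose from 34.7 and 45.5 CPM to 162 and 190.2 CPM (2.12 ± 0.15, limma, adjusted p = 3.28e-09), and Chac1, an enzyme that degrades glutathione, from 5.2 and 5.15 CPM to 39.9 and 22.1 CPM (2.32 ± 0.43). The immediate early genes Fos (-0.25) and Jun (-0.40) were not called. Of 16 interferon-induced genes, 3 were called higher (18.8%, below the 39.8% of all genes), 1 lower (6.25% against 15.3%) and 12 neither. Ifit2 was the largest rise, from 0.45 and 0.2 CPM to 4.8 and 3.25 CPM (1.91 ± 0.24).

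Of 11 gut regional identity genes, 1 was called higher (9.09% against 39.8% of all genes) and 3 lower (27.3% against 15.3%) in CPM. Under median-of-ratios scaling none was higher and 8 were lower (26.1% of all genes). The changes were at most 0.81 in size. The factor Gata6 fell from 199.7 and 204 CPM to 126 and 141 CPM (-0.59 ± 0.14), and the intestinal master regulator Cdx2 stood at 158 and 194 CPM against 195 and 225 CPM and was not called, but was called, at 0.47, without KO2 at 5 ng/ml. The 5 tested gastric markers included 4 called lower (80.0% against 15.3% of all genes). Tff1 had 49.0 and 22.9 CPM against 6.05 and 7.55 CPM (-2.15 ± 0.48), and was at -1.27 and not called without KO7 at 5 ng/ml. Gkn1 had 13.2 and 3.55 CPM against 1.15 and 2.15 CPM (-1.63 ± 0.34), and was at -0.53 without KO7 at 5 ng/ml and at -2.73 without KO2 at 5 ng/ml. None of the 11 mitochondrially encoded genes was called in CPM, against 55.1% of all genes. After quantile normalisation 1 of them was called higher, against 25.6% of all genes. The general epithelial genes Epcam (-0.10), Krt8 (-0.04) and Krt19 (-0.14) were not called in CPM, while the keratin Krt18 rose from 233 and 168 CPM to 632 and 347 CPM (1.24 ± 0.18) and the villus claudin Cldn15 fell from 444 and 479 CPM to 258 and 257 CPM (-0.84 ± 0.11).

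Among genes with a mean of at least 5 CPM, leaving out predicted genes without a proper symbol, the largest rises were those of Olfm4, Axin2, Lgr5, Stc2, Sorbs2 and Msi1. Stc2, a secreted glycoprotein named stanniocalcin 2, rose from 3.3 and 3.8 CPM to 131 and 55.5 CPM (4.25 ± 0.24, limma, adjusted p = 3.67e-10), and the cytoskeletal adaptor Sorbs2 from 9.35 and 5.45 CPM to 185 and 103 CPM (4.09 ± 0.33, limma, adjusted p = 6.28e-09). The largest falls were found for digestive and metabolic genes. The chymotrypsinogen Ctrb1 fell from 93.5 and 87.5 CPM to 2.4 and 3.5 CPM (-4.55 ± 0.33, limma, adjusted p = 3.74e-09), and the solute carrier Slc5a4b from 244 and 362 CPM to 8.95 and 25 CPM (-4.21 ± 0.45, limma, adjusted p = 1.78e-07). Cyp3a25, a cytochrome P450, went from 291 and 482 CPM to 13.3 and 51.2 CPM (-3.78 ± 0.46), the carboxylesterases Ces1f and Ces1d fell by 3.49 and 3.34, and the brush border peptidase Ace fell by 3.36. These genes were chosen among those in which both cultures moved the same way, so their agreement in direction is not a result.

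The response was compared with that of the WT cultures to the same doses of Rspo3. In the same fit the KO and WT dose changes differed in 1 of 19130 genes (0.00523%), the antisense gene Gm29587, which has at most 2.45 CPM in the KO libraries (KO minus WT 1.11, limma, adjusted p = 0.0451). At an unadjusted p below 0.05 there were 1209 genes (6.32%). In WT alone 11819 genes (61.8%) changed with the dose, 8561 of them upwards (44.8%). The median width of the 95% interval of a difference was 0.452 to each side, before the adjustment over all genes. With 2 KO and 3 WT cultures, differences well above this size also missed the adjusted threshold, such as 1.99 for Ly6a. The lack of calls therefore does not show that the genotypes respond alike. Axin2 had 2.2 to 4.6 CPM at 5 ng/ml and 88.2 to 157 CPM at 100 ng/ml in WT, and its dose change was higher in KO by 0.72, with a 95% interval of -0.60 to 2.05. For Olfm4 the difference was -0.16 (-1.52 to 1.20), for Lgr5 -0.01 (-1.39 to 1.37), for Mcm2 -0.10 (-0.84 to 0.63), for Anpep -0.12 (-1.01 to 0.78) and for Lama5 0.14 (-0.82 to 1.10). Other enterocyte genes differed: Slc15a1 (1.85, 0.82 to 2.89) and Krt20 (1.13, 0.12 to 2.14) fell less in KO, neither called, and Treh was at 0.29 (-0.48 to 1.05). The median difference of the enterocyte list was -0.13, with no member called. Among the fetal genes Ly6a had 0.25 to 0.9 CPM and 1.85 to 2.25 CPM in WT, which gave a difference of 1.99 (1.23 to 2.75) that missed the threshold over all genes (limma, adjusted p = 0.11) and, at 2.38, passed it without KO2 at 100 ng/ml. The difference was 2.90 (1.66 to 4.14) for Spp1 and 1.71 (1.01 to 2.41) for Wnt7b, neither called, and Wnt7b was called, at 2.18, without KO2 at 100 ng/ml. The median dose change of the fetal list was 1.15 in KO and 0.58 in WT.

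The same KO cultures also received Rspo1 and Rspo2. Both differences below use the 4 Rspo3 libraries and are not independent of each other. Libraries and pairs left out below are those of the Rspo3 doses, except where another is named, and no Rspo2 library was left out. With Rspo1, 8387 genes (43.8%) changed between 100 and 5 ng/ml and with Rspo2 224 genes (1.17%), 184 of them upwards (0.962%). The dose change was larger with Rspo3 than with Rspo2 in the positive sense for 4838 genes and in the negative sense for 1825 (34.8% together). It differed from Rspo1 for 649 genes in the positive sense (3.39%) and 107 in the negative sense (0.559%), a count that fell to 14 and 2 without the culture block, to none in either direction in a fit of the KO libraries alone, and to between 92 and 403 and between 14 and 105 when a library or pair of the Rspo3 doses was left out. Without KO2 at 100 ng/ml of Rspo1, the library with 213 CPM of Xist, 76 and 12 genes were left.

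For Axin2 and Olfm4 the difference from Rspo2 lay mostly at the lower dose, and ligands were not tested against each other at the same dose. With Rspo2 both genes rose with the dose in KO7 and fell in KO2 (Olfm4 from 376 to 878 CPM and from 1201 to 834 CPM). Axin2 had 138 and 433 CPM at 5 ng/ml of Rspo2, 11.2 and 55.3 CPM at 5 ng/ml of Rspo1 and 3.25 and 3.5 CPM at 5 ng/ml of Rspo3. At 100 ng/ml the same cultures had 423 and 378 CPM with Rspo2, 258 and 417 CPM with Rspo1 and 162 and 240.4 CPM with Rspo3. The Rspo3 dose change of Axin2 thus exceeded that of Rspo2 by 4.80 ± 0.70 (limma, adjusted p = 2.79e-05) and that of Rspo1 by 1.85 ± 0.70, which was not called (limma, adjusted p = 0.164). Olfm4 followed the same order, with 376 and 1201 CPM, 56.9 and 218 CPM, and 7.2 and 7.85 CPM at 5 ng/ml of Rspo2, Rspo1 and Rspo3. Its dose change with Rspo3 exceeded that with Rspo2 by 5.76 ± 0.72 (limma, adjusted p = 6.29e-06) and that with Rspo1 by 3.07 ± 0.72 (limma, adjusted p = 0.0191). The latter was 2.67 to 3.46 with 1 library of the Rspo3 doses left out, and 2.99 without KO2 at 100 ng/ml of Rspo1, never called. Without the culture block it was not called either (limma, adjusted p = 0.16). Of the stem cell markers, 17 of 20 rose more with Rspo3 than with Rspo2 (25.3% of all genes), 14 to 16 with a library or pair left out, and Olfm4 alone more than with Rspo1.

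All 34 cell cycle genes rose more with Rspo3 than with Rspo2 (25.3% of all genes), and 29 rose more than with Rspo1 (3.39% of all genes). Of the 29, 1 was left without the culture block and none in the KO libraries alone. Fewer than 29 were also left without a library or pair of the Rspo3 doses, or without KO2 at 100 ng/ml of Rspo1. The median dose change of the list was 2.34 with Rspo3, 0.82 with Rspo1 and near 0 with Rspo2. Mcm2 had 9.1 and 11.8 CPM at 5 ng/ml of Rspo3, 34.2 and 70.3 CPM with Rspo1 and 119 and 160 CPM with Rspo2. At 100 ng/ml it had 120.2 and 128 CPM, 183 and 169 CPM and 175 and 127 CPM. The levels at 5 ng/ml were thus further apart between ligands than those at the higher dose. Uhrf1, a factor of maintenance methylation in S phase, rose more with Rspo3 than with Rspo1 by 1.97 ± 0.38 (limma, adjusted p = 0.00676), and by 1.73, not called, without KO7 at 5 ng/ml, and by 1.80, not called, without KO2 at 100 ng/ml of Rspo1.

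Enterocyte genes showed the reverse. Anpep had 1208 and 1128 CPM at 5 ng/ml of Rspo3, 924 and 748 CPM with Rspo1 and 213 and 288 CPM with Rspo2, and of the 35 enterocyte genes 16 fell more with Rspo3 than with Rspo2 (9.54% of all genes), 8 to 17 with a library or pair left out, and none more than with Rspo1. Outside the list, the largest falls beyond that with Rspo1 were those of the nucleoside transporter Slc28a1 (-2.09 ± 0.28), the retinol dehydrogenase Rdh9 (-2.08 ± 0.47), the dipeptidase Dpep1 (-1.97 ± 0.53) and the transporter Slc37a2 (-1.95 ± 0.37). Without KO2 at 100 ng/ml Rdh9 was at -1.41, Dpep1 at -1.46 and Slc37a2 at -1.70, none called, and without the culture block none of the 4 was called. Without KO2 at 100 ng/ml of Rspo1, Slc28a1 was still called (-1.84), and Rdh9 (-2.00), Dpep1 (-1.55) and Slc37a2 (-1.85) were not. Lama5 did not follow the other genes across the ligands: at 5 ng/ml it had 116 and 45.1 CPM with Rspo3, 32.3 and 43.8 CPM with Rspo1 and 518 and 132 CPM with Rspo2. Its dose change with Rspo3 exceeded that with Rspo2 by 1.55 ± 0.50, a call that was lost, at 1.18, without KO7 at 100 ng/ml, and was 0.84 ± 0.50 lower than that with Rspo1, which was not called. For the fetal and matrix lists the difference from Rspo1 was called in no member, while up to 2 fetal genes and 1 matrix gene were called lower with a library or pair of the Rspo3 doses left out. The median difference of the fetal list was -0.71.

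**Figure D4:**
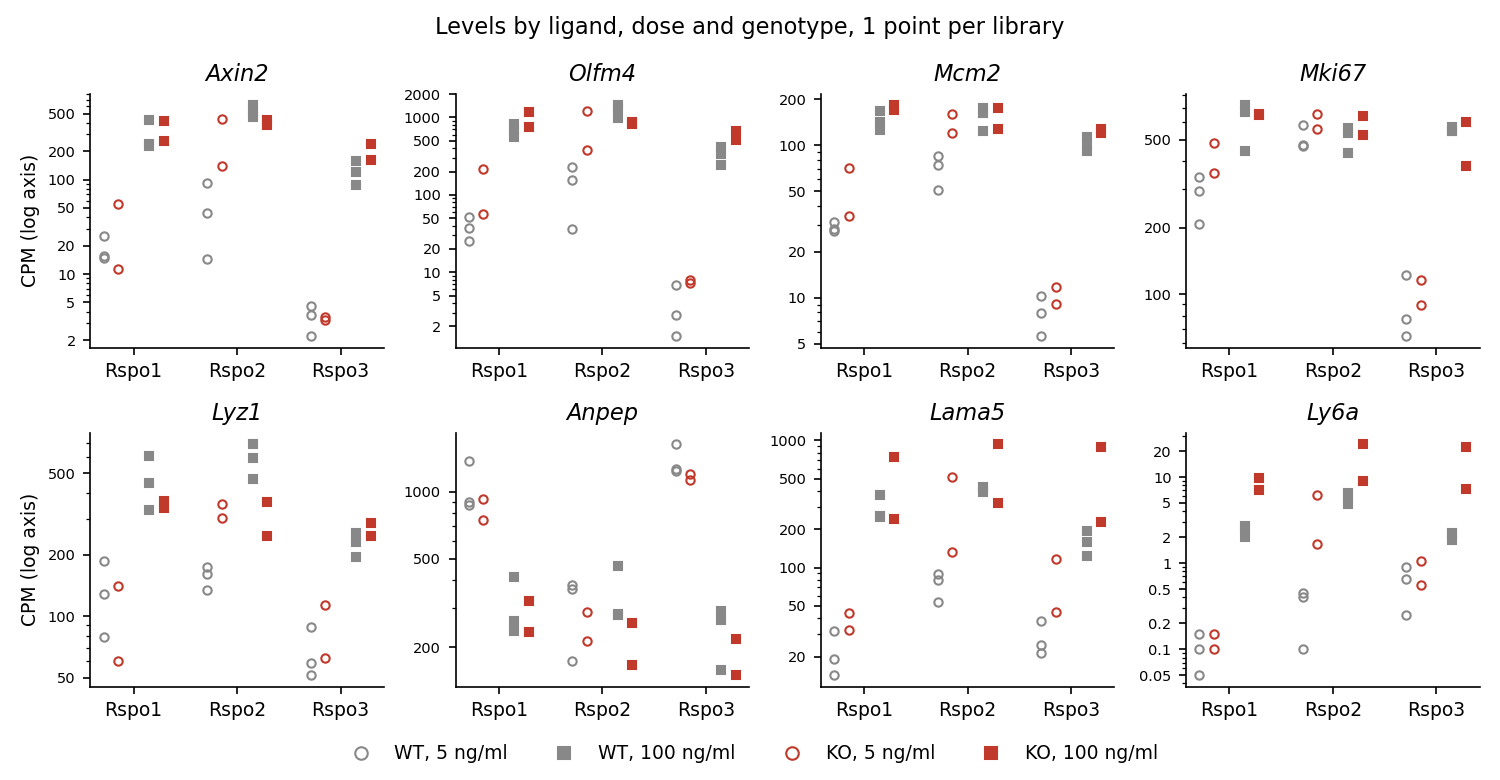
CPM on a log axis of 8 genes in all 30 organoid libraries by ligand (x axis), with WT in grey and KO in red, open circles at 5 ng/ml and filled squares at 100 ng/ml, 1 point per library. The Axin2, Olfm4, Mcm2 and Mki67 points at 5 ng/ml of Rspo3 are the lowest of each panel, and the Anpep points of that dose lie between 1128 and 1639 CPM. For Ly6a the KO points at 100 ng/ml lie above the WT points with each ligand.

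**Figure D5:**
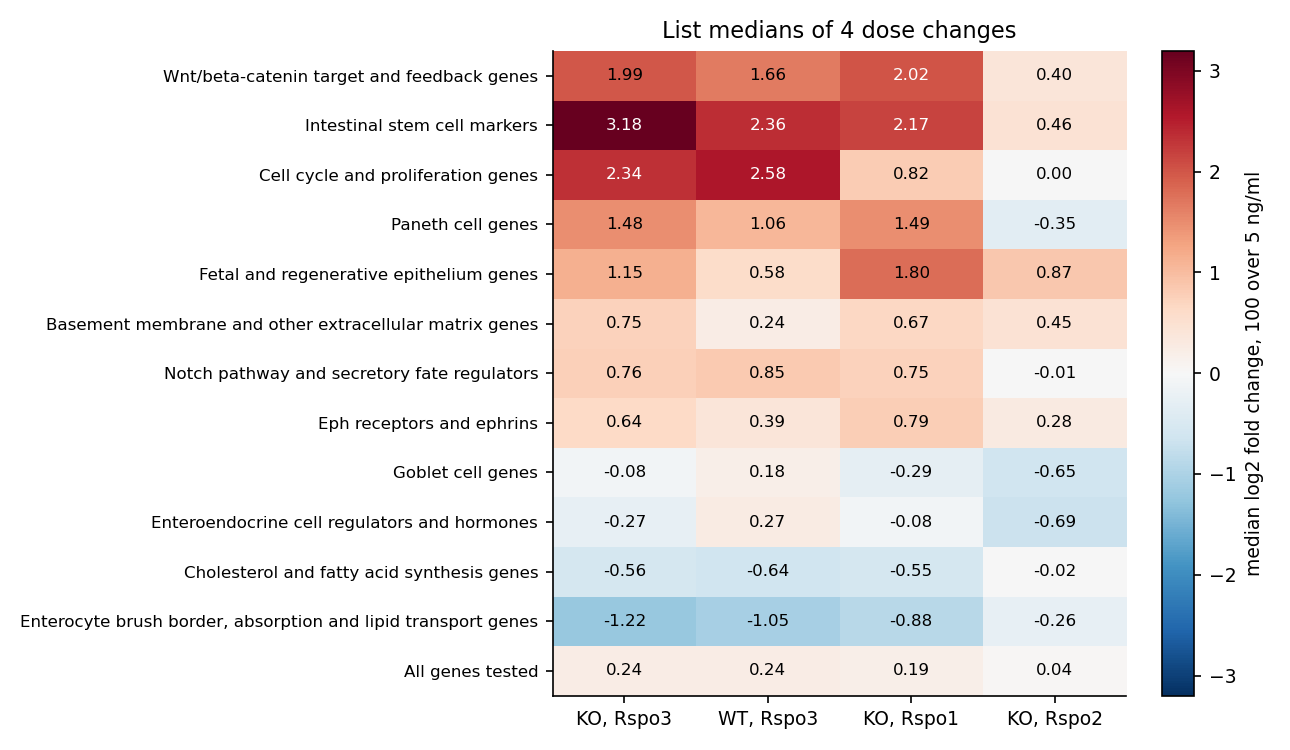
Median log2 fold change between 100 and 5 ng/ml in CPM of 12 gene lists and of all genes tested, for Rspo3 in KO and WT and for Rspo1 and Rspo2 in KO. The stem cell list has medians of 3.18, 2.36, 2.17 and 0.46 and the cell cycle list of 2.34, 2.58, 0.82 and 0, and the enterocyte list is below 0 in each column.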

How the data were processed

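Total RNA (miRNeasy) of organoids gave rRNA-depleted NEBNext libraries. Per the submitters' processing notes and the study's methods, the authors trimmed reads with Trimmomatic 0.36, aligned them to the mouse genome (GRCm38, mm10) with STAR 2.5.3a and counted genes with HTSeq 0.9.1. The authors deposited CPM for 52636 genes, rounded up to the next 0.05. One read was worth 0.0302 to 0.0552 CPM, so whole reads could not be recovered and no count test was run. Depth, estimated from the spacing of low values, was 18.1 to 33.1 M reads over the 30 libraries. Sorted-cell libraries were not used.

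The 19130 genes that reached 1 CPM in 2 or more libraries were tested as log2(CPM + 1) with limma 3.58.1 (R 4.3.3, trended variance) over 30 organoid libraries, 12 groups and a culture block, two-sided, with Benjamini-Hochberg adjustment. The script was tested on simulated data. Libraries of a culture come from the same embryo, and in KO7 their deviations from group means correlated at 0.234 to 0.779 over 15 pairs of libraries (0.559 for the Rspo3 pair). P-values measure the spread between these libraries only. Gene positions are GRCm38, and promoter sequences are RefSeq's.

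The genes named were all Rspondin receptors and ligases, the 4 largest called changes of each list (or the 2 highest genes), the 6 largest rises and falls, the 4 largest of each difference of dose changes in each direction, and 8 genes the study names. Changes chosen by size had to go the same way in both KO cultures. Other genes named were chosen after their values were seen. The comparison and the gene lists were chosen with earlier results of these data known. Alternatives changed the block, libraries, filter, pseudocount (0.1), scaling and threshold, or left out a library or pair.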

Additional observations from a re-analysis of the deposited data

Results flagged for a closer look

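Differences between the dose changes of 2 groups were tested with an interaction term in the same limma fit, and each value below is such a difference on the log2 scale with an adjusted p under 0.05 over all genes. Between KO and WT with Rspo3 the dose change differed in 1 gene, the antisense gene Gm29587, by 1.11. Between Rspo3 and Rspo1 in the KO cultures it was higher for 649 genes and lower for 107. Olfm4 (3.07), Fam129a (2.27), Moxd1 (2.03) and Uhrf1 (1.97) were the largest named rises, and Slc28a1 (-2.09), Rdh9 (-2.08), Dpep1 (-1.97) and Slc37a2 (-1.95) the largest named falls. Without KO2 at 100 ng/ml of Rspo1, Moxd1 (2.03) and Slc28a1 (-1.84) were still called and the other 6 were not. Between Rspo3 and Rspo2 it was higher for 4838 genes and lower for 1825. Olfm4 (5.76), Axin2 (4.80), Stc2 (4.25) and Lgr5 (3.98) led the rises, and Ctrb1 (-3.80), Slc5a4b (-3.78), Cyp3a25 (-3.27) and Ace (-3.25) the falls. The differences from Rspo1 and Rspo2 share the 4 Rspo3 libraries.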

How the results depend on the processing

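With 2 KO cultures, each library weighs heavily, and single-gene values near the threshold are the least certain. Libraries and pairs left out were those of the KO Rspo3 doses, except where another is named. For the KO Rspo3 dose change, the 7605 genes called higher became 4734 with a filter on the mean, 4902 after quantile normalisation, 4420 at an adjusted p under 0.001 and 1900 under median-of-ratios scaling with a log2 change above 1. The 2929 called lower became 4996 under median-of-ratios scaling, 5138 after quantile normalisation, 1796 with a fold above 1.5, 1449 at an adjusted p under 0.001 and 1399 under the added call, and 1923 to 2447 with a library or pair left out. The pairing by culture moved these counts by less than 1.5 times: with no replicate block 6259 genes were higher and 2248 lower, and 16 of the named genes lost their call. For KO minus WT, the 1 gene higher became 0 with no replicate block, with a pseudocount of 0.1, with the mean filter and at an adjusted p under 0.001, and 0 to 13 with a library or pair left out (13 without KO2 at 100 ng/ml). The 0 genes lower (1209 genes had an unadjusted p below 0.05 in either direction) became 2 with no filter, 1 under median-of-ratios scaling, 1 after quantile normalisation and 0 to 4 with a library or pair left out. For Rspo3 minus Rspo1, the 649 higher became 14 with no replicate block, 0 with the KO libraries only, 360 with no filter, 257 after quantile normalisation, 0 at an adjusted p under 0.001 and 76 to 403 with a library or pair left out, and the 107 lower became 2, 0, 0 at an adjusted p under 0.001 and 12 to 105. The lowest counts, 76 and 12, are those without KO2 at 100 ng/ml of Rspo1, an alternative added after the data were seen. For Rspo3 minus Rspo2, the 4838 higher became 3213 after quantile normalisation and 1960 at an adjusted p under 0.001, and the 1825 lower became 920 with no replicate block, 2941 under median-of-ratios scaling, 3116 after quantile normalisation, 334 at an adjusted p under 0.001 and 1092 to 1550 with a library or pair left out. Of the 113 named genes tested, 1632 of 1777 values kept their direction and side of the threshold and 10 turned: Lgr4 (-0.14), Pecam1 (-0.039), Sdc1 (-0.026) and mt-Nd5 (-0.19) under median-of-ratios scaling, Pecam1 (-0.17) after quantile normalisation, and, with a library or pair left out, Vim (-0.48 to 0.10) and mt-Co1 (-0.15 to 0.071). The cause of these changes was not tested.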
